A study of Mus musculus with 6 samples.

Results

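Of the 597 mouse miRNA probes on the array, the 8 for miRNAs of epithelial cells were followed in retinal cells of mice. These are the miR-200 family (mmu-miR-200a, mmu-miR-200b, mmu-miR-200c, mmu-miR-141 and mmu-miR-429), mmu-miR-184, mmu-miR-203 and mmu-miR-205. They were chosen by name, as miRNAs of the lens and of the ocular surface, so that their level in each array bears on how much of such epithelium a retinal sample holds. A spot belonged to a miRNA where its design name carried the mouse name of that miRNA, which gave 1 probe for each of the 8, with 4 copies per probe and 32 of the 8720 spots of an array. Each of these probes also carries the name of the human or the rat miRNA, or both.

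Retinal cells came from B10.RIII mice aged 8 weeks, in 3 samples of animals developing experimental autoimmune uveoretinitis (EAU), taken on day 14, and in 3 samples of naive animals. In EAU, a model of human uveitis, autoreactive T cells inflame the retina. The samples were harvested independently, but the number of mice behind each is not given in the sources used here. Each sample has a slide of its own, so p-values measure the spread between harvests and between slides together. Each sample gave 800 ng of total RNA for the Hy3 channel of a miRCURY array, whose capture probes hold locked nucleic acids. A pool of equal amounts of the samples, in the Hy5 channel, is the common reference on all 6 arrays.

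The miR-200 family keeps epithelial cells epithelial by repressing the transcription factors ZEB1 and ZEB2, which in turn repress E-cadherin. MiR-203 and miR-205 are known from stratified epithelia such as skin and cornea, where miR-203 favours differentiation over stem-cell renewal. MiR-184 is among the most abundant miRNAs of the cornea and the lens epithelium. In the eye these miRNAs are thus known mainly from tissues in front of the retina, while the neural retina is known for miR-124, miR-9 and the miR-183 cluster.

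The mature sequences are shown because probes for near-identical miRNAs can capture one another's targets, which bears on how far the family members can be read apart. All 8 names matched the RefSeq mouse table (GRCm38.p6). The unstarred array names were taken as the 3p arm, and for miR-205 as the 5p arm. Capitals mark the seed, bases 2 to 8, which pairs with target mRNAs.
mmu-miR-200a: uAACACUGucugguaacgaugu
mmu-miR-141: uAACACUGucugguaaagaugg
mmu-miR-200b: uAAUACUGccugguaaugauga
mmu-miR-200c: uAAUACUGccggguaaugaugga
mmu-miR-429: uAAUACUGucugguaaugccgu
mmu-miR-184: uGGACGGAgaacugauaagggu
mmu-miR-203: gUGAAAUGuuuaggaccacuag
mmu-miR-205: uCCUUCAUuccaccggagucug

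The 8 miRNAs hold 5 seeds. MiR-200a shares its seed with miR-141, and miR-200b with miR-200c and miR-429, while the seeds of miR-184, miR-203 and miR-205 were found in 0 other mature miRNAs of the 1679 names in the table. Positions are counted from 1 at the 5′ end. MiR-200a and miR-141 differ at 2 of 22 positions, C17A and U22G, and miR-200b and miR-200c at 2 of the 22 positions they share, U11G and A22G. MiR-200b and miR-429 differ at 4 positions. Signal from the other members of a seed group at any one of these probes was not tested, and no probe sequence is used here.

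The hairpins of miR-200b, miR-200a and miR-429 lie on the minus strand within 1846 bases of chromosome 4, at chr4:156053905-156055750 of GRCm38.p6, inside the long non-coding RNA gene Gm13648. Those of miR-200c and miR-141 lie within 477 bases of chromosome 6, at chr6:124717914-124718390. The miR-205 hairpin, at chr1:193507463-193507530, lies inside its host gene Mir205hg. The miR-184 hairpin lies at chr9:89802260-89802328 and that of miR-203 at chr12:112130880-112130955.

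The arrays were dim. The scanner software called every spot of all 597 mouse probes well above background on every array, so that its mark separated nothing. Levels were therefore read against the 116 empty and 28 negative-control spots of each array. The blank level, their median plus 3 median absolute deviations, ranged from 74.1 to 127 units of sample signal on the EAU arrays and from 73.9 to 107 on the naive arrays, and a probe counted as above it where at least 50% of its spots were. Since the EAU arrays share 1 day of scanning and the naive arrays another, and each array is a slide of its own, the day of the scan cannot be told apart from the group. In such tissue RNA, fewer cells of a type and less miRNA per cell cannot be told apart.

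MiR-184 and miR-205 were above the blank level on all 6 arrays, in 24 of 24 spots each. For each of the 2, at least 160 other mouse probes were also above it on all 6 arrays. On any 1 array, 211 to 279 of the 597 mouse probes were above it, so being above does not set miR-184 and miR-205 apart. These counts rest on the level chosen. Of the 144 empty and control spots, 23 to 30 were themselves above it on the EAU arrays and 28 to 39 on the naive arrays, with 0 to 5 of the 28 negative controls among them. The 95th percentile of the 144 spots was 264.8 to 1005 units on the EAU arrays and 581 to 849.5 on the naive arrays. Against that percentile, miR-184 was above on 1 array and miR-205 on 0. The miR-200 family and miR-203 gave signals at the level of the empty spots in both groups, with 5 of these 6 miRNAs above the blank level on 0 of 6 arrays and miR-200a on 1. In the shared reference, miR-184 was above the blank level on 6 arrays and miR-205 on 5. Between EAU and naive retinal cells 0 of the 8 miRNAs passed an adjusted p of 0.05 in limma, beside 12.9% of all 595 mouse probes tested, and 1 (miR-203) had an unadjusted p under 0.05, beside 34.6%.

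MiR-184, the cornea and lens miRNA, had a mean sample signal of 490.1, 1285 and 192 units on EAU arrays 1 to 3, against 632, 366 and 407 on naive arrays 1 to 3. The highest and the lowest of the 6 values were both from EAU, and the groups overlapped. Set against the median of the empty and control spots of the same array, these signals were 4.06 to 19.2 times as bright in EAU and 5.89 to 10.4 times in naive. In the reference channel, where every array received the same pool, the miR-184 probe read 77.7, 134 and 44.9 units on the EAU arrays, against 111, 146 and 93.2 on the naive arrays. The array with the dimmest sample signal, EAU replicate 3, was thus also the dimmest for the shared pool.

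The log2 ratio of sample to reference, which sets each sample signal against the pool at the same spot, was -0.047, -0.30 and 0.093 for miR-184 in EAU, against 0.27, -0.40 and -0.25 in naive. The groups overlapped, with means of -0.086 ± 0.20 in EAU and -0.13 ± 0.35 in naive (SD, n = 3 each). The difference of 0.040 had an SE of 0.20 and a 95% interval of -0.47 to 0.55 (limma, adjusted p = 0.916). That interval holds differences of either sign, so no direction can be given. Of its 24 spots, 5 were marked as outliers and left out of the ratio, 3 on EAU replicate 2 and 2 on naive replicate 1. On EAU replicate 2 this left copy 2 alone (-0.30), beside 0.66 at the outlier copy 1, so the arrays were compared over unlike copies. With all spots kept, the difference was 0.18 (adjusted p = 0.421 in limma). The 4 copies then gave differences between 0.097 and 0.27, with overlap of the groups at each.

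MiR-205, of stratified epithelia, had a mean sample signal of 182, 353 and 127 units in EAU, against 272, 193 and 165 in naive. EAU replicate 2 was the brightest array and EAU replicate 3 the dimmest, so the raw signals of the groups overlapped. The signals were 2.69 to 5.29 times the median of the empty and control spots in EAU and up to 4.49 times in naive. The reference channel at this probe read 42.5, 53.3 and 38.0 units on the EAU arrays, against 48.1, 54.6 and 42.9 on the naive arrays, close to its blank level of 38.6 to 46.0.

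The log2 ratio of miR-205 was 0.13, 0.24 and 0.17 in EAU, against 0.53, 0.33 and 0.25 in naive. All 3 EAU values lay below all 3 naive values, as for 29.4% of all probes, with EAU replicate 2 and naive replicate 3 next to each other. The difference of -0.19 (SE 0.079, 95% interval -0.39 to 0.0046) did not pass over all probes (limma, adjusted p = 0.152). Over the alternative settings it ran from -0.34 to 0.083. With a reference this close to its blank level, the interval does not bound the size of a change. For the Hy3 signal by itself the groups overlapped and the difference was -0.20 (limma, adjusted p = 0.575). With median centring of each array in place of loess it was 0.014, and with no normalization 0.083, so its sign depended on the normalization.

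**Figure D1:**
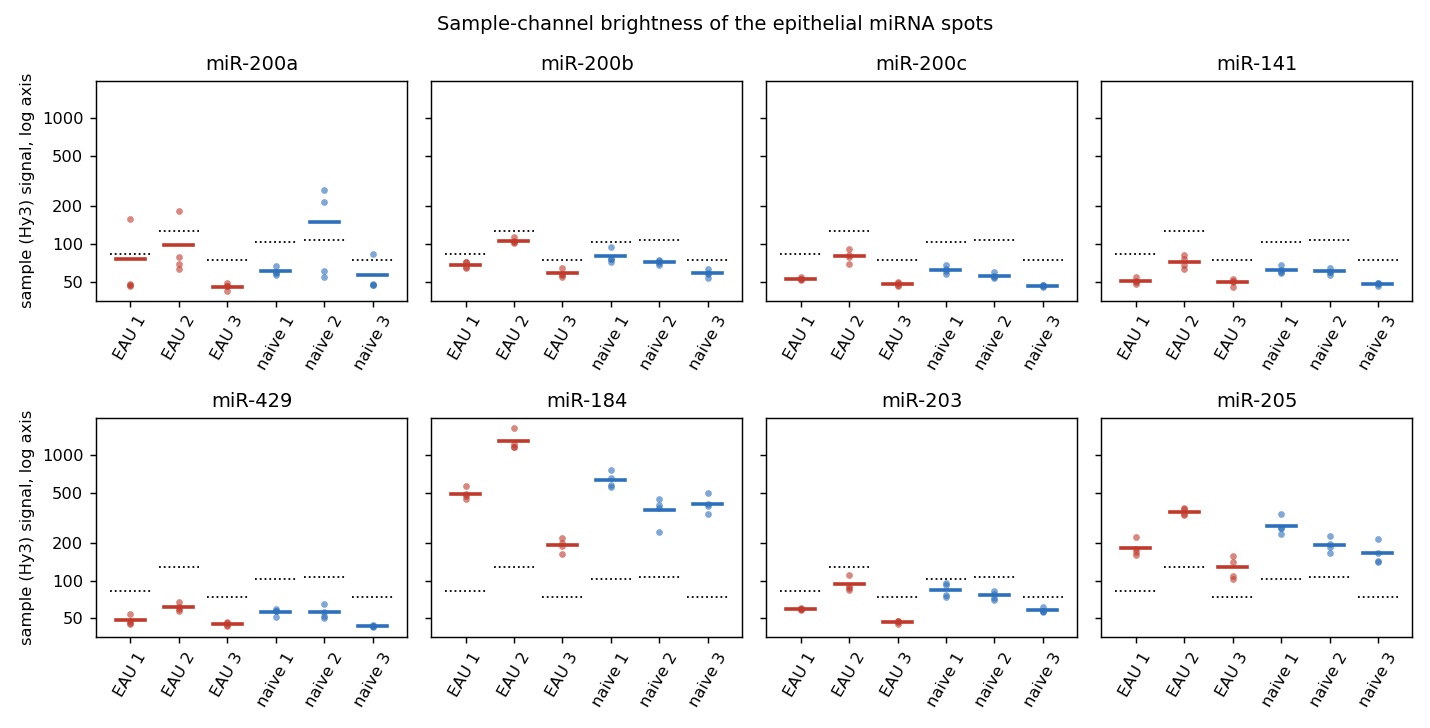
Sample-channel (Hy3) brightness of the 8 epithelial miRNAs on each array, on a log axis. Points are the 4 copies of a probe, bars their mean, and dotted lines the blank level of that array. Red is EAU, blue naive. All spots of miR-184 and miR-205 lie above the dotted lines, and those of the other 6 miRNAs lie below them except 5 spots of miR-200a.

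The 5 miRNAs of the miR-200 family were near the empty spots in both groups. MiR-200b had the signals 68.3, 106 and 58.3 units in EAU, against 79.4, 71.1 and 58.2 in naive, which is 1.23 to 1.58 times and 1.15 to 1.31 times the median of the empty and control spots. It stayed under the blank level on every array, in 24 of 24 spots. Against a level set from the negative-control spots alone, a measure added after the data were seen, miR-200b was above it on 1 array and miR-203 on 2. MiR-184 and miR-205 were above that level on 6 arrays.

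MiR-200c had 52.9, 80.5 and 48.0 units in EAU, against 62.3, 55.8 and 46.3 in naive. Its cluster partner miR-141 had 50.8, 72.1 and 49.5 in EAU, against 62.0, 60.3 and 48.0 in naive, between 0.971 and 1.08 times the median of the empty and control spots. MiR-429 had 48.3, 61.3 and 45.1 in EAU, against 56.5, 56.1 and 43.4 in naive, below that median on all 6 arrays. EAU replicate 2, whose empty spots were also the brightest, was the brightest array for each of these 3 miRNAs.

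MiR-200a, the remaining member, had 75.2, 98.7 and 45.8 units in EAU, against 60.4, 149 and 56.1 in naive. Its highest values rested on single spots. Copy 1 read 159 units on EAU replicate 1 and 183.9 on EAU replicate 2, and copies 1 and 2 read 268 and 214 on naive replicate 2, whereas the other copies on those 3 arrays read between 46.6 and 78.6. The local background at copies 1 and 2 on naive replicate 2 was 83 and 74 units, over 22 to 24 at copies 3 and 4. The 8 spots around copy 1 of that array, which belong to other probes, all read 259 units or more. Without spots that the software marked for an outlying local background, an alternative added after the data were seen, miR-200a was above the blank level on 0 arrays.

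The log2 ratios of the family were small and did not separate the groups. Those of miR-200a were -0.18, -0.16 and -0.066 in EAU, against -0.036, -0.060 and -0.078 in naive (difference -0.075, SE 0.034, adjusted p = 0.185 in limma). Without the spots of outlying local background the difference was 0.0056. MiR-200b differed by -0.014 (SE 0.021), miR-200c by 0.013 (SE 0.025), miR-141 by 0.018 (SE 0.027) and miR-429 by -0.0052 (SE 0.019), with adjusted p-values between 0.665 and 0.885. Their 95% intervals lay within -0.068 and 0.085. With both channels near the blank level, such narrow intervals describe the spread of empty-level signals and bound no change in the amount of miRNA.

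MiR-203, which favours differentiation in skin, had 59.6, 93.1 and 46.9 units in EAU, against 84.6, 76.1 and 58.1 in naive, all under the blank level. Its log2 ratio was -0.022, -0.043 and -0.056 in EAU, against 0.023, 0.026 and 0.028 in naive. The groups did not overlap, EAU being lower as for 29.4% of all probes, and the naive values lay close together. The difference of -0.066 (SE 0.016, 95% interval -0.11 to -0.025) had the smallest adjusted p of the 8 miRNAs, 0.0592 in limma, and did not pass. From the sample signal without the reference it was -0.26 (limma, adjusted p = 0.189), again with no overlap, beside 29.7% of all probes in either direction. The 4 copies of the probe gave differences between -0.13 and -0.026, without overlap of the groups at 3 of the 4 copies. The copies lie on the same arrays and are not replicates of a group. With a smaller background offset of 10 the difference was -0.23 and passed (adjusted p = 0.0493). From the ratios that the authors deposited it was 0.027. As for the miR-200 family, a difference between signals under the blank level does not give the size of a change.

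**Figure D2:**
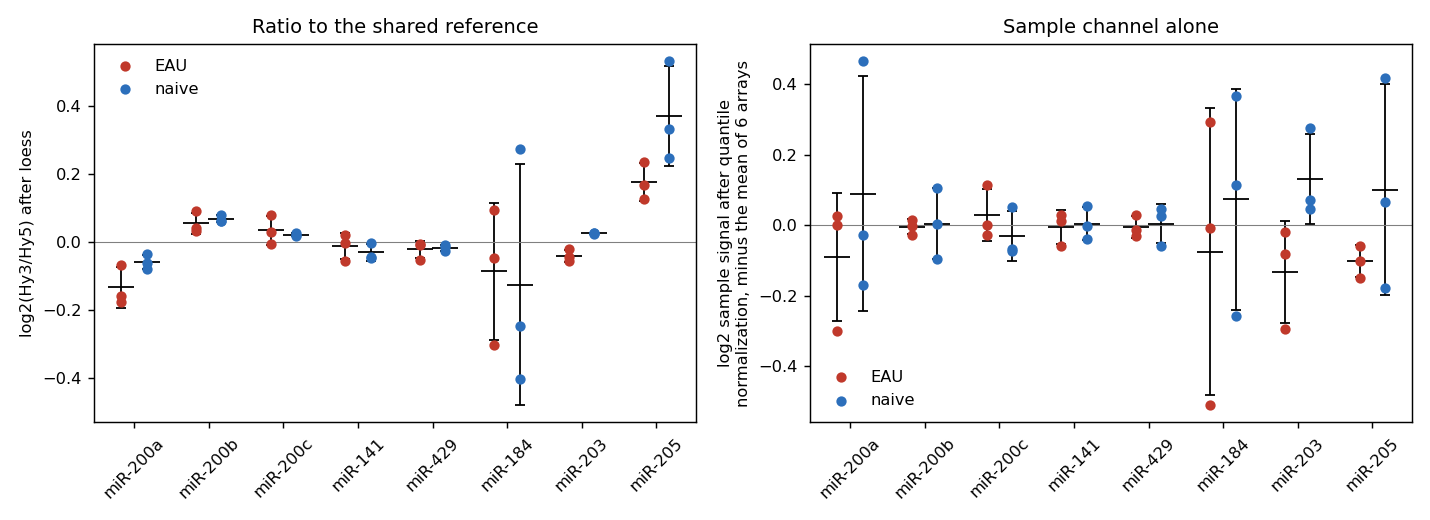
Log2 ratio of sample to shared reference (left) and log2 sample signal with its mean over 6 arrays subtracted (right) for the 8 miRNAs. Points are arrays, EAU in red left of naive in blue, and black bars the mean ± SD (n = 3 each). The groups lie apart for miR-203 in both panels and for miR-205 in the left panel, and overlap for the other 6 miRNAs in both.

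Among all mouse probes tested, 4.2% passed as higher and 8.74% as lower in EAU, beside 0 of the 8 epithelial miRNAs in either direction. The groups did not overlap for 2 of the 8, both lower in EAU, beside 46.5% of the 592 probes with a value on every array (17.1% higher, the rest lower). The median difference of the 8 was -0.0095, and that of all tested probes -0.012. In the sample channel alone 0 of 8 passed in limma, beside 9.58% of all probes, and 1 had an unadjusted p under 0.05, beside 23.9%. The groups did not overlap there for 1 of the 8, beside 29.7% of all.

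The shared pool gave a measure of the spread of the reference channel, where the samples do not differ. The median spot there read 33.8 to 38.3 units, over a local background of 29 to 30. Calls in so dim a channel do not bound the spread of the sample channel, which also holds that of harvest and labelling. In the reference channel alone, 0 of the 8 and 0 of 595 probes passed in limma, with an unadjusted p under 0.05 for 0 of the 8 and for 5.71% of all. Its groups lay apart for 0 of the 8, beside 10.1% of all. The reference signal of miR-184 nevertheless ranged 3.26-fold over the 6 arrays before normalization, and that of miR-205 1.44-fold. Their sample signals ranged 6.69-fold and 2.78-fold. All these signals still held the local background, a larger part of the dim reference signals, so the folds of the 2 channels cannot be compared. Over local background, the reference at copy 4 of the miR-205 probe ran from 11.1 units on EAU replicate 3 to 40.1 on naive replicate 2.

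The reference signal also differed within each array, along the 4 copies of a probe. At the miR-205 probe, the reference signal over local background was 5.73, 10.3, 15.4 and 21.5 units at copies 1 to 4 of EAU replicate 1, against 5.82, 9.20, 16.2 and 23.2 at those of naive replicate 3. Copy 4 was 2.41 to 3.76 times as bright as copy 1 on the EAU arrays and 2.45 to 3.99 times on the naive arrays. For miR-184 the same ratio was 1.76 to 2.80 in EAU and 2.04 to 3.74 in naive. The sample signal of miR-205 changed less, by 1.12 to 1.64 times in EAU and 1.25 to 1.62 times in naive. All 4 copies of miR-205 gave a negative difference between the groups, from -0.25 to -0.13, and the groups overlapped at each single copy.

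**Figure D3:**
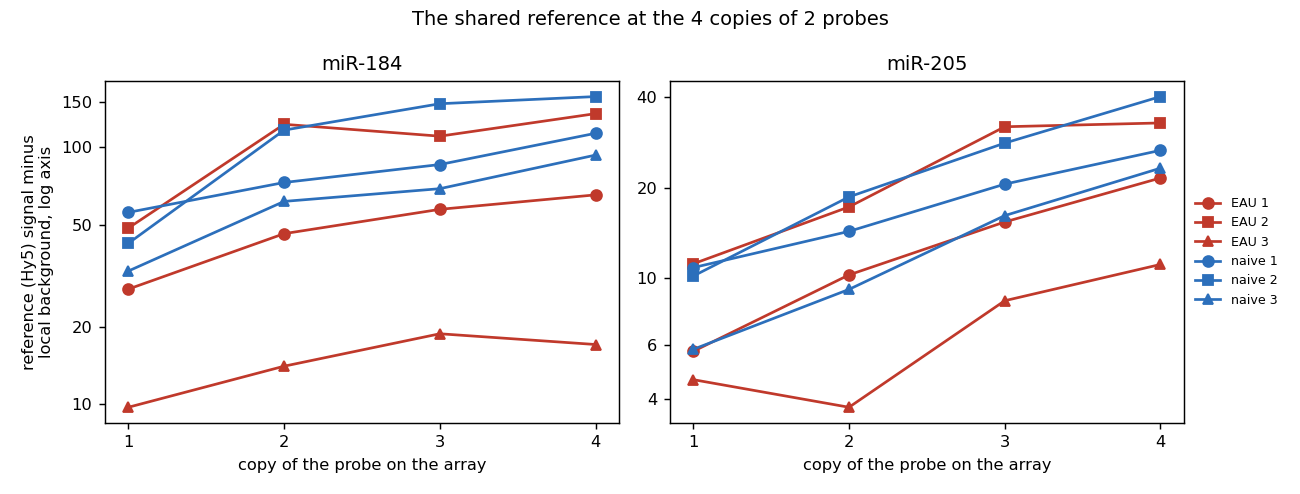
Reference (Hy5) signal minus local background at the 4 copies of the miR-184 and miR-205 probes, on a log axis. Each line is 1 array (EAU red, naive blue), and all arrays received the same pool. Copy 4 is brighter than copy 1 on every array, by 1.76 to 3.99 times, and EAU replicate 3 is the dimmest at every copy.

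Probes for the other arms of the same hairpins were present for 4 of the 8, and 0 of the 4 passed in limma, with an unadjusted p under 0.05 for 2 (miR-200b* and miR-200c*), beside 34.6% of all probes. MiR-200b*, the 5p arm of the miR-200b hairpin, was above the blank level on all 6 arrays, with 443, 614 and 155 units in EAU, against 359.6, 316 and 327 in naive. Its log2 ratio was 0.31, 0.30 and 0.24 in EAU, against 0.24, 0.21 and 0.21 in naive (difference 0.063, SE 0.025, adjusted p = 0.144). MiR-200c* was also above the blank level on all 6, with 169.8, 228 and 137 units in EAU, against 132, 243 and 105 in naive. Its difference was -0.20 (SE 0.063, adjusted p = 0.0852 in limma), with no overlap between the groups, EAU being lower as for 29.4% of all probes. The sign of this difference turned with no normalization (0.16), with median centring (0.095) and in the ratios the authors deposited (0.19). MiR-141* was above the blank level on 2 EAU and 2 naive arrays and differed by 0.022 (adjusted p = 0.727), and miR-200a* on none (0.032, adjusted p = 0.522). The star arms of miR-200b and miR-200c were thus above the blank level where the unstarred arms were not, and the amounts of the arms cannot be compared between different probes.

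A further 3 probes carried a member's name of another species alone. The rat miR-200b probe was above the blank level on 1 EAU and 0 naive arrays and differed by -0.023, and the human miR-429 probe on 0 arrays and by 0.014. The human miR-141* probe had fewer than 50% of its spots above the blank level on every array, though its mean signal of 95.5 units on EAU replicate 3 and 137.4 on naive replicate 2 exceeded the level there. It differed by -0.12 (SE 0.037, adjusted p = 0.113 in limma over all 1306 named miRNA probes tested). The groups did not overlap, EAU being lower as for 29.4% of the mouse probes.

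Of 5 other miRNAs of epithelia, 1 passed: miR-31, of keratinocytes and corneal epithelium, was lower in EAU, beside 8.74% of all probes lower. Its log2 ratio was -0.16, -0.11 and -0.13 in EAU, against 0.0033, 0.032 and 0.069 in naive (difference -0.17, SE 0.026, adjusted p = 0.0205 in limma). Its sample signal was 61.7, 98.7 and 50.1 units in EAU, against 88.5, 78.7 and 81.8 in naive, above the blank level on 0 EAU arrays and 1 naive array, and its reference signal on 0 arrays. As for the miR-200 family, a difference between such signals does not give the size of a change. It was -0.52 with an offset of 10 and -0.98 with the processed signals. MiR-31 was lower in all 19 alternatives in which it was tested and did not pass in 9 of them, 4 of which left out 1 array (naive replicate 1, naive replicate 2, naive replicate 3 or EAU replicate 3, with adjusted p up to 0.0729). MiR-375, of endocrine and secretory epithelia, was above the blank level on all 6 arrays, with 256, 598 and 90.8 units in EAU, against 202.8, 179.6 and 189 in naive, and differed by 0.091 (SE 0.076, adjusted p = 0.439). MiR-192, miR-194 and miR-215, of intestine and kidney, were above the blank level on 0 arrays and differed by 0.022, 0.034 and 0.010.

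The labelled tissue was checked against its own miRNAs. All 5 miRNAs of retinal neurons and photoreceptors were above the blank level on all 6 arrays, beside 211 to 279 of the 597 mouse probes on any 1 array. Of the 5, miR-182 had 477, 349 and 191 units in EAU, against 1226, 1319 and 1174 in naive. Of these 5, 2 fell in the log2 ratio, beside 8.74% of all probes lower, and 3 did not pass. MiR-9 fell by 0.35 (adjusted p = 0.0211) and miR-183 by 1.38 (adjusted p = 0.0483, without EAU replicate 1, whose spots were marked as outliers). MiR-124 had 17040, 16775 and 5850 units in EAU, against 49475, 49024 and 43721 in naive. Its ratio, without a value for EAU replicate 2, differed by -0.69 (SE 0.67, adjusted p = 0.520 in limma). In the sample channel alone, again without EAU replicate 2, the difference was -2.04 (limma, adjusted p = 0.00881). Both miRNAs of the pigment epithelium, miR-204 and miR-211, fell, by 0.73 (adjusted p = 0.0291) and 0.50 (adjusted p = 0.00702), again beside 8.74% of all probes lower. Of the 4 leukocyte miRNAs 1 passed, beside 4.2% of all probes higher. This was miR-142-3p, which rose by 0.56 (adjusted p = 0.0166) and was above the blank level on 3 EAU arrays and 0 naive arrays. Since miR-142-3p was under the blank level in naive, that value does not give the size of its rise, which ranged from 0.48 to 1.95 over the alternatives. MiR-223, above the blank level on all 6 arrays, had 185, 402 and 209 units in EAU, against 138, 149 and 142 in naive. It differed by 0.13 (SE 0.25, adjusted p = 0.751 in limma).

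These calls depended on the processing. That of miR-9 was lost in 12 of 20 alternatives, among them median centring (adjusted p = 0.595), no normalization and the runs without EAU replicate 3 or any 1 naive array (adjusted p up to 0.0854). That of miR-183 was lost in 10 of 18, including without any 1 naive array (up to 0.153). That of miR-204 was lost in 9 of 20, including median centring (0.374), no normalization (0.528) and every run without 1 array except EAU replicate 1 (up to 0.104). That of miR-211 held without any 1 array and was lost in 4 of 20, with median centring (0.129), no normalization (0.223), loess on spots above the blank level (0.0502) and the replicate block (0.0743). That of miR-142-3p was lost in 4 of 20, including without EAU replicate 3 or naive replicate 2 (up to 0.0712). Of those that did not pass, miR-96 passed in 7 of 20 alternatives, miR-182 in 4 of 20 and miR-142-5p in 8 of 20, and each kept its direction in all 20. MiR-451 of red blood cells was above the blank level on 2 EAU arrays and 0 naive arrays. The difference between these lists and the epithelial miRNAs was not tested.

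By a rule on the shape of the profile, the probes most like each of the 2 bright miRNAs were sought among the 160 other mouse probes above the blank level on all 6 arrays. The measure was the root mean square distance between log2 ratios over the 6 arrays, each minus its own mean. For miR-205 these were miR-503* (distance 0.031), miR-129-5p (0.083) and miR-465b-5p (0.091), against a median distance of 0.21. For miR-184 they were miR-99b* (0.15), miR-685 (0.17) and miR-713 (0.18), against a median of 0.29. The nearest profile thus lay closer to miR-205 than to miR-184. The ratios of miR-184 also spread more between arrays (SD 0.35 in naive, against 0.15 for miR-205), and on EAU replicate 2 they rested on copy 2 alone. Their part in the larger distances was not tested.

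Each of the 8 differences changed sign in at least 1 of its alternative settings. The difference of miR-203 was negative in 18 of 19 alternatives and that of miR-205 in 18 of 20, and both were negative whichever array was left out, between -0.075 and -0.058 for miR-203 and between -0.25 and -0.11 for miR-205. The difference of miR-184 ranged from -0.15 in the sample channel alone to 0.45 with no normalization. None of the alternatives put miR-184, miR-205 or a member of the miR-200 family past the threshold, with adjusted p-values down to 0.0759 for miR-200a.

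**Figure D4:**
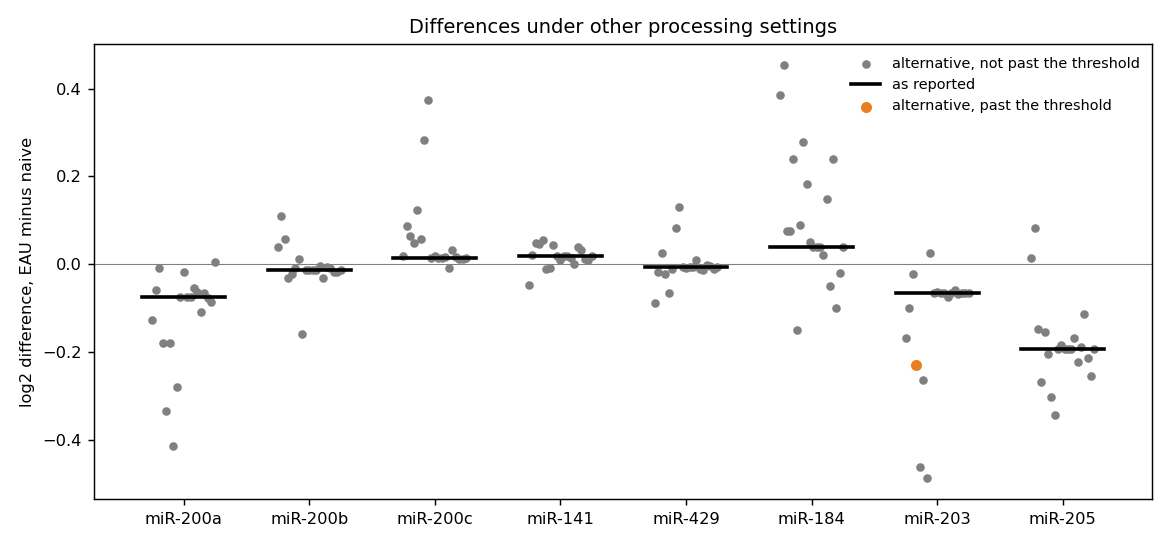
Log2 difference, EAU minus naive, of the 8 miRNAs as reported (black bar) and in 19 or 20 alternative settings each (points). The 1 orange point, miR-203 at -0.23 with a background offset of 10, is the only alternative in which one of the 8 passed the threshold. The points of miR-184 spread furthest above 0, up to 0.45.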

How the data were processed

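The deposited scanner files give the intensity of each spot and of its surroundings in both channels. They come from version 9.1.3.1 of Agilent Feature Extraction, per the file headers, which also made the processed signals by background adjustment and dye normalization. A second deposited table holds the authors' linear ratio for each of 1972 probes, whose centring is not given in the sources used here. It followed Hy3 over Hy5 (median correlation 0.909 with the processed signals over 85 bright probes), its column medians were 0.809, 0.886 and 0.807 in EAU and 0.879, 0.851 and 0.769 in naive, and 36 rows above 32 on every array were left out. No dyes were swapped.

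Mean signals were corrected by normexp (offset 50) and loess with control spots at weight 0, outlier spots were left out and the copies of a probe averaged (limma 3.58.1, R 4.3.3). EAU and naive were compared over all 595 mouse probes with at least 2 values per group by lmFit and eBayes, two-sided, with Benjamini-Hochberg adjustment. For the single channels, normexp was followed by quantile normalization. The fit was tested on simulated data. The number of arrays limits the precision. Members, lists and tests were chosen with earlier results of these data known. The text names all 8 members, then list members past the threshold or above the blank level on at least 3 arrays, and the 3 nearest profiles. Others named were chosen after their values were seen. Alternatives covered background correction, normalization, channel, spot summary, filter, feature set, replicate block and each array left out.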

Additional observations from a re-analysis of the deposited data

How the results depend on the processing

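Of all 595 probes, 77 passed as reported. The count fell to 2 with median centring, 25 with no normalization, 11 with loess on spots above the blank level, 47 with the median of the spots, 41 without spots of outlying local background (added after the data were seen) and 2 with the sample number as a replicate block. Leaving out 1 array gave 7 (without EAU replicate 3) to 77 calls, with 9, 15 and 36 without naive replicates 1, 2 and 3. The cause was not tested. Same-numbered samples share a number in their labels, which do not say whether they were handled together. Their deviations correlated by 0.19, -0.15 and 0.29, against -0.44 to 0.30 for samples of unlike number, which does not settle it. Under the block 0 of the 8 miRNAs passed. The share of higher calls was 21 of 25 with no normalization and 42 of 72 with the processed signals, against 25 of 77 as reported.

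Of the 8 miRNAs, 1 passed with offset 10 (miR-203, -0.23, adjusted p = 0.0493, over adjusted p-values from 0.0493 to 1.00 across its alternatives) and 0 in every other setting. Signs turned with median centring for miR-200b (0.040), miR-141 (-0.047), miR-205 (0.014), miR-200c* (0.095) and miR-192 (-0.0054). They turned with no normalization for miR-200b (0.11), miR-205 (0.083) and miR-200c* (0.16), and with loess on spots above the blank level for miR-200b (0.058) and miR-429 (0.027). In the sample channel alone miR-141 (-0.010), miR-184 (-0.15) and miR-200b* (-0.23) turned. With the processed signals miR-200b (0.013), miR-141 (-0.0080) and miR-429 (0.082) turned, and in the deposited value table miR-429 (0.13), miR-203 (0.027) and miR-200c* (0.19). Without 1 array, signs turned for miR-429 (-0.014 to 0.0096), miR-200c (-0.0089 to 0.033), miR-184 (-0.050, -0.099 and -0.021 without EAU replicate 3 and naive replicates 2 and 3; -0.099 to 0.24 in all), miR-141* (-0.013 to 0.056), miR-215 (-0.013 to 0.040) and miR-223 (-0.14 to 0.31). Without spots of outlying local background miR-200a turned (0.0056).

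With the 95th percentile of the empty and control spots as the blank level, 0 of the 8 miRNAs were above it on all 6 arrays (miR-184 on 1, miR-205 and the other 6 on 0), and in the reference channel 1 was, against 2 as reported. Signals at the blank level limit what can be said of the 6 dim miRNAs.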

Other observations

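The change of the shared reference along the 4 copies was not limited to miR-184 and miR-205. Over 91 mouse probes above the blank level in both channels on all 6 arrays, the median ratio of copy 4 to copy 1 in the reference channel was 2.66, 2.40 and 2.07 on EAU arrays 1 to 3 and 2.35, 3.01 and 3.46 on naive arrays 1 to 3. In the sample channel the same median was 1.22, 1.20 and 1.01 on the EAU arrays and 1.31, 1.15 and 1.22 on the naive arrays. The probe of miR-200a* had 1 spot of 4617 units on naive replicate 3, marked as an outlier, beside 42.5 to 48.8 units at its other copies on that array.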
